A study of Mus musculus with 19 samples.

Results

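Npcd and its 2 overlapping neighbours Nptxr and Cbx6, together with the other neuronal pentraxins Nptx1 and Nptx2, were followed library by library in hippocampal slices of wild-type mice. The 5 genes were taken by their symbols from tables of 20436 genes, and all 5 had a row in the RNA and in the ribosome profiling table. Npcd was chosen by its change in ribosome-protected fragments between DHPG and basal libraries, so its difference between treated and vehicle slices is given as a description without a p-value. The same holds for Nptxr and Cbx6, which share reads with Npcd. Slices came from male mice of 28 to 42 days, all wild-type, with slices of several animals pooled per replicate and CA3 left in place. The treatment lasted 5 min and was either DHPG (100 µM), an agonist of group 1 metabotropic glutamate receptors (mGluR), or artificial cerebrospinal fluid as the vehicle (basal), and every slice was then placed in cycloheximide at 100 µg/ml to stop elongation. RNA-seq gave RNA levels. Ribosome profiling gave counts of ribosome-protected fragments (RPFs), short pieces of mRNA that a ribosome shields from nuclease, which report ribosome occupancy and not protein. There were 4 RNA libraries of basal slices against 5 of DHPG slices (replicate 5 has no basal RNA library here), and 5 RPF libraries of each kind, 19 in all.

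Neuronal pentraxins are synaptic proteins of the pentraxin superfamily that gather AMPA-type glutamate receptors at excitatory synapses. Nptx1 and Nptx2 (also called Narp) are secreted, and Nptx2 is known as an activity-regulated gene. Nptxr, the neuronal pentraxin receptor, is anchored in the membrane and assembles with both, and its release from the membrane by the protease Adam17 has been tied to mGluR-dependent long-term depression. Cbx6 belongs to another family, the chromobox proteins of Polycomb repressive complex 1, which bind methylated histones through a chromodomain. Npcd (neuronal pentraxin with chromo domain) joins both: its transcript starts in Cbx6 and ends in Nptxr.

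In the GENCODE M21 annotation of mm10, all 3 genes of the locus lie on the minus strand of chromosome 15, with Cbx6 at chr15:79823896-79834688, Npcd at chr15:79789675-79834237 and Nptxr at chr15:79786351-79804766. Nptx1 is at chr11:119538719-119547753 on the minus strand and Nptx2 at chr5:144545902-144557478 on the plus strand. The shorter Npcd transcript, Npcd-201, has 8 exons: exons 1 to 4 of Cbx6 followed by exons 2 to 5 of Nptxr. Npcd-202 has 9, the added exon being the first 291 bases of Cbx6 exon 5. Neither contains Nptxr exon 1, which starts the coding sequence of Nptxr, or the remainder of Cbx6 exon 5, which holds most of the coding sequence of Cbx6. Exons 2 to 5 are the part of Nptxr that holds its pentraxin domain. The joins between exons are therefore the only stretches that tell the transcripts apart where they overlap, and they are shown here with the upstream exon in lower case and the downstream exon in capitals, 15 bases of each, 5′ to 3′.
Npcd-201, Cbx6 exon 4 to Nptxr exon 2: actttcctcctaaagCAGGAGCTCCCAGCC
Npcd-202, Cbx6 exon 5 to Nptxr exon 2: atcctgaacctgaagCAGGAGCTCCCAGCC
Nptxr, exon 1 to exon 2: atcgagcgcatcgagCAGGAGCTCCCAGCC
Cbx6, exon 4 to exon 5: actttcctcctaaagGCCCGGGCCCAGGCG
The upper pair occurred in no GENCODE transcript of another gene, the third only in Nptxr, and the fourth in both Cbx6 and Npcd, since Npcd-202 uses the same join.

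**Figure D1:**
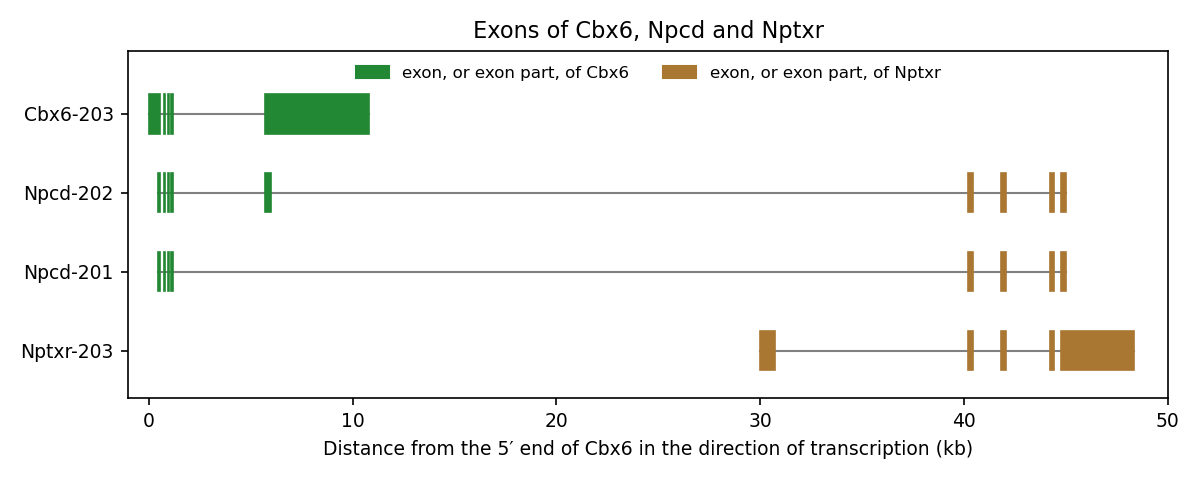
Exons of 1 transcript each of Cbx6 and Nptxr and of both Npcd transcripts, drawn to scale against the distance in kb from the 5′ end of Cbx6. Exons of Npcd are coloured by the gene whose exon they overlap, and each of them overlaps an exon of Cbx6 or of Nptxr.

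Few reads can be assigned to Npcd by their own sequence. RPFs were counted on coding sequences without the first and last 30 nt, and of the 1027 windows of 30 bases in the counted part of Npcd-201, 813 also occur in Nptxr and 187 in Cbx6, which leaves 27 windows (2.63%), all of them across the join. In Npcd-202, 27 of 1318 windows (2.05%) are its own. Nptxr has 577 own windows of 1390 (41.5%), and Cbx6 has 675 of 1153 (58.5%). Over whole transcripts in windows of 75 bases, as for RNA reads, 72 of 1088 windows of Npcd-201 (6.62%) are its own. Nptx1 and Nptx2 share no window of either length with the other members. The deposited counts are RSEM estimates, in which a read that suits several transcripts is divided according to their estimated abundances, so nearly all of the Npcd count is a division of reads with Nptxr and Cbx6 that cannot be undone from the counts. The RefSeq annotation, which the authors used for RPFs, lets Npcd run to 79786351, the 3′ end of Nptxr, so that by RefSeq the genes can also share a 3′ end in RNA.

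Total counts were 4870813 to 7793244 per RNA library and 5692064 to 22092434 per RPF library. Markers of pyramidal and granule neurons, interneurons, astrocytes, oligodendrocytes, microglia and endothelium were all detected, none of the 32 at 0, and the range of each list's summed level in DHPG libraries overlapped that in basal libraries in both assays. Overlap of ranges ignores the pairing. A single interneuron and a single oligodendrocyte marker passed the RPF threshold for DHPG against basal, as did 0.22% of all RPFs. RPF log2 fold changes were above 0 for 5 of 5 microglia, 5 of 5 astrocyte, 4 of 5 oligodendrocyte and 0 of 5 endothelium markers. They were above 0 for 4 of 6 pyramidal and granule and 3 of 6 interneuron markers. Medians ran from -0.144 (endothelium) to 0.11 (oligodendrocytes). The part of cell content in other differences was not tested. The widest ranges were those of the 5 oligodendrocyte markers, with sums of 3904 to 8252 CPM (counts scaled to a common library size) in basal RPF libraries and 4503 to 9288 in DHPG RPF libraries. In whole slices, fewer cells of a type cannot be told apart from less RNA per cell.

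In basal slices, ribosome occupancy was highest on Nptx1 and lowest on Nptx2. Per kb of counted coding sequence, mean RPF levels were 583 ± 37.7 CPM per kb (SD, n = 5) for Nptx1, 399 ± 58.9 for Nptxr, 224 ± 17.8 for Cbx6, 136 ± 48.5 for Npcd and 47.3 ± 6.64 for Nptx2. The ranges of neighbours in this order did not overlap, and the order held in 5 of 5 basal libraries. The RNA order was different. Per kb of transcript, Nptxr RNA stood at 123 ± 44.6 CPM per kb (SD, n = 4), Nptx1 at 70.1 ± 10.4, Nptx2 at 31.1 ± 8.28, Cbx6 at 25.2 ± 1.32 and Npcd at 16.3 ± 13.6. Only Nptx1 and Nptx2 were separated between neighbours, as the ranges of Nptxr and Nptx1, of Nptx2 and Cbx6, and of Cbx6 and Npcd overlapped. The Npcd levels use the mean length of its 2 GENCODE transcripts, and its RNA level would be lower with the longer RefSeq 3′ end.

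**Figure D2:**
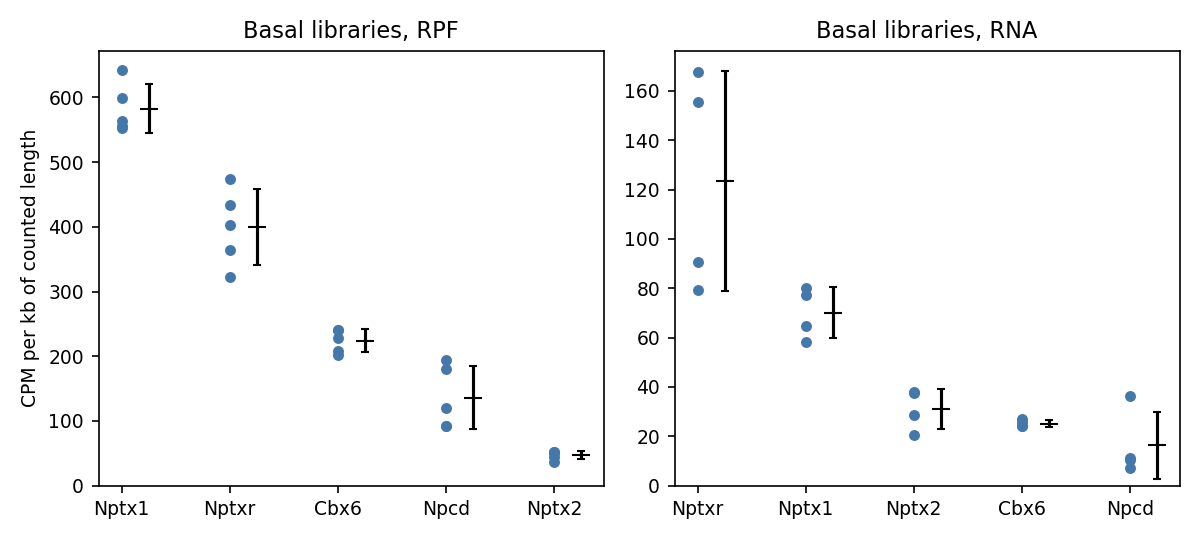
Level of each member in basal slices in CPM per kb of counted length, RPF on the left (5 libraries) and RNA on the right (4 libraries), with points for libraries and bars for the mean ± SD. Nptx1 leads in RPF and Nptxr in RNA, and the 4 RNA values of Npcd run from 7.09 to 36.5.

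Library by library, Npcd was the least steady member of the locus. Its RPF counts in basal replicates 1 to 5 were 933, 3830, 4784, 951 and 1399, or 145, 233, 217, 111 and 111 CPM. Replicates 2 and 3 were the high libraries, as they also were after DHPG. Nptxr ran the other way, with basal RPF levels of 572, 457, 518, 615 and 672 CPM, lowest in replicates 2 and 3. Cbx6 did so within a narrower range, with 284, 238, 247, 269.9 and 284 CPM. The sum of Npcd and Nptxr moved little, at 717, 690.4, 735, 726 and 784 CPM.

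In RPF, the spread between libraries was large for Npcd and small for its sum with Nptxr. In basal RPF libraries, the SD of log2 CPM was 0.51 for Npcd, above that of 98.2% of all genes tested, 0.22 for Nptxr and 0.067 for their sum, which is below the median of 0.15 over all genes tested and at the 9.12th percentile. After DHPG the SD was 0.80 for Npcd, 0.23 for Nptxr and 0.081 for the sum, against a median of 0.16. Adding Npcd to Cbx6 did not narrow the spread in this way, since Cbx6 alone had an SD of 0.12 in basal slices and the sum with Npcd 0.14. In basal RNA libraries, the SD was 0.505 for the sum of Npcd and Nptxr and 0.542 for Nptxr alone (median 0.256). In DHPG RNA libraries it was 0.318 and 0.333 (median 0.228). Over the 10 RPF libraries, log2 CPM of Npcd correlated with Nptxr at r = -0.92 and with Cbx6 at r = -0.90, whereas Nptxr and Cbx6 correlated with each other at r = 0.91. These r describe libraries that fall into replicate pairs and genes that share reads, and no test was made of them.

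As a share of the counts of Npcd, Nptxr and Cbx6 together, Npcd took 14.5%, 25.1%, 22.1%, 11.1% and 10.4% in the basal RPF libraries and 8.17%, 18.2%, 22.8%, 6.17% and 6.66% in the DHPG RPF libraries. The 95% exact binomial intervals of these shares were narrow (24.4% to 25.8% in basal replicate 2, 10.5% to 11.8% in basal replicate 4) and cover counting error only, so the differences between replicates exceed it. The 4 libraries with the highest shares, replicates 2 and 3 of both groups, also had the most counts at the locus (15104 to 21622, against 5714 to 13416 in the others), and the part of depth in the share was not tested.

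In RNA the Npcd share was lower and ordered differently. It was 7.38%, 1.01%, 1.38% and 2.61% in basal replicates 1 to 4, and 2.87%, 0.883%, 0.202%, 2.05% and 0.0914% in DHPG replicates 1 to 5. Replicates 2 and 3, highest in RPF, were below replicates 1 and 4 in RNA in both groups. With the libraries of a replicate averaged, the RPF share was 14.5% ± 6.97 (SD, n = 5) and the RNA share 1.86% ± 1.999, a difference of 12.7 percentage points (SD 7.83) that was positive in 5 of 5 replicates and ran from 6.20 to 21.7 points. A two-sided exact sign-flip permutation test gave p = 0.0625, the smallest that 5 replicates allow, so this design cannot reach 0.05. RPFs were counted on coding sequences and RNA on whole transcripts, so the shares in the 2 assays have different bases. By GENCODE, the lengths used for RPF and RNA were 1201.5 and 1307.5 bases for Npcd, 1419 and 4948 for Nptxr, and 1182 and 5806 for Cbx6. At equal abundance these lengths alone make the Npcd share higher in RPF, less so with the longer RefSeq 3′ end. Sharing of sequence also differs between the assays. By GENCODE, Nptxr had 41.5% own windows in the counted coding sequence and 83.2% over the whole transcript, and Cbx6 58.5% and 91.5%. The test therefore cannot tell a difference in occupancy from one of counted length or of how shared reads were divided.

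**Figure D3:**
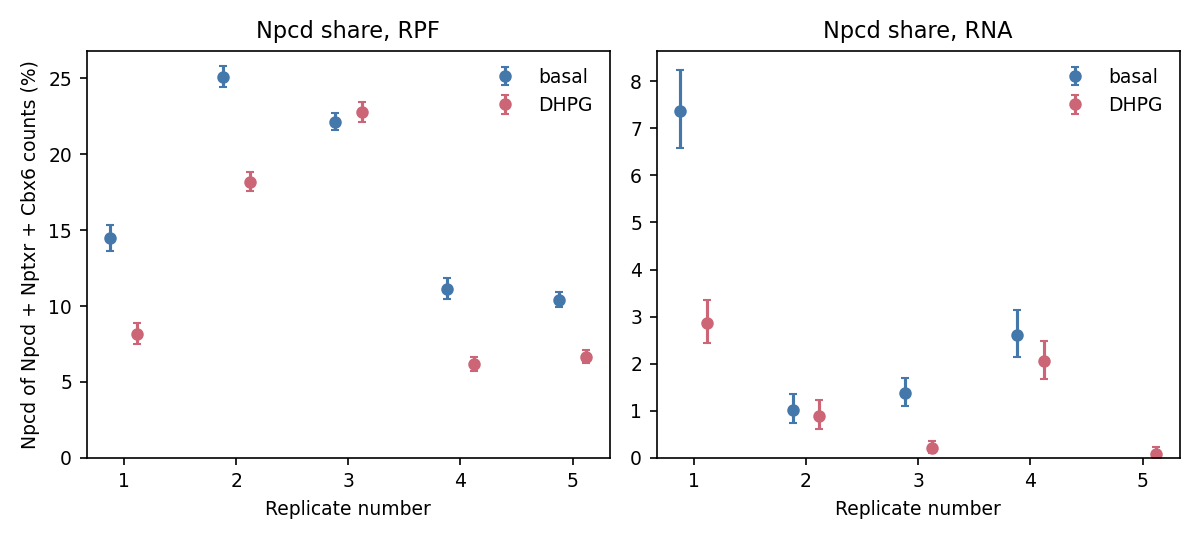
Npcd as a percentage of the summed counts of Npcd, Nptxr and Cbx6 in each library, by replicate number, for RPF (left) and RNA (right, with its own scale), with 95% exact binomial intervals. RPF shares run from 6.17% to 25.1% and RNA shares from 0.0914% to 7.38%, and the replicates with high RPF shares are not those with high RNA shares.

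The design then asked how the locus differed after DHPG. With edgeR's quasi-likelihood test, 29 of 13208 RPFs (0.22%) passed an adjusted p of 0.05, 24 higher and 5 lower (0.0379%). Npcd was among the lower 5, by the contrast for which it was picked, and no other member passed. Without the replicate block Npcd was not called. Nptxr passed in RPF without the filter on low counts (96 RPFs called), without replicate 3 (71) and in DESeq2 after ComBat (427). In RNA, 1 of 12935 genes (0.00773%) passed the adjusted p of 0.01, and it was no member. Npcd passed in RNA without the filter on low counts (7 RNAs called) and without replicate 2 (22) or 4 (2). Npcd was picked by its RPF difference and shares reads with Nptxr. These calls therefore describe the settings and are no test of either gene.

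RPFs of Npcd were lower after DHPG in every pair. The DHPG libraries had 83.2, 184, 212, 63.4 and 74.1 CPM against 145, 233, 217, 111 and 111 in their basal partners. The groups overlapped, because replicates 2 and 3 stayed high after treatment and the difference in replicate 3 was small (-0.035 on the log2 scale, against -0.80, -0.34, -0.81 and -0.59 in replicates 1, 2, 4 and 5). The edgeR log2 fold change was -0.43 ± 0.057 (SE of the fit, which does not measure the spread of the pairs), a fold of 0.742. DESeq2 with the replicate block gave -0.51 with a larger SE of 0.146. Among all RPFs tested, 4.72% were lower after DHPG in every pair.

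Nptxr RPFs were higher after DHPG in 4 of 5 pairs and lower in replicate 3. So were those of Nptx1 and Nptx2, which share no reads with the locus. Nptxr rose most in replicate 2 (0.349 on the log2 scale), where the Npcd difference was -0.34, smaller than in replicates 1, 4 and 5. RPF levels of Nptxr after DHPG were 657, 582, 484, 674 and 737 CPM, and its log2 fold change was 0.14 ± 0.036 (SE). It was 0.087 without replicate 2 and 0.20 without replicate 3. Cbx6 RPFs after DHPG were 277, 247, 235, 289.7 and 301 CPM, higher in 3 of 5 pairs, with a log2 fold change of 0.027 ± 0.032.

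Added before the fit, Npcd and Nptxr did not show the difference of Npcd alone. Npcd made up 8.59% to 33.8% of this sum in RPF libraries, so most of it was Nptxr. It could show only a part of any difference in Npcd. The sum was 740.0, 767, 696, 738 and 811 CPM after DHPG against 717, 690.4, 735, 726 and 784 CPM in basal slices, and its log2 fold change was 0.038 ± 0.030 (SE), on the other side of 0 from that of Npcd. The sum of all 3 genes gave 0.035 ± 0.030. The sum of Npcd and Cbx6 was lower in 5 of 5 pairs, with a log2 fold change of -0.12 ± 0.031. Npcd made up 17.96% to 49.47% of that sum in RPF libraries, in each library more than of the sum with Nptxr. A difference in Npcd therefore weighs more in the sum with Cbx6. With which neighbour Npcd exchanged reads was not tested by comparing these sums. The sums of pairs of genes were chosen after seeing the data.

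**Figure D4:**
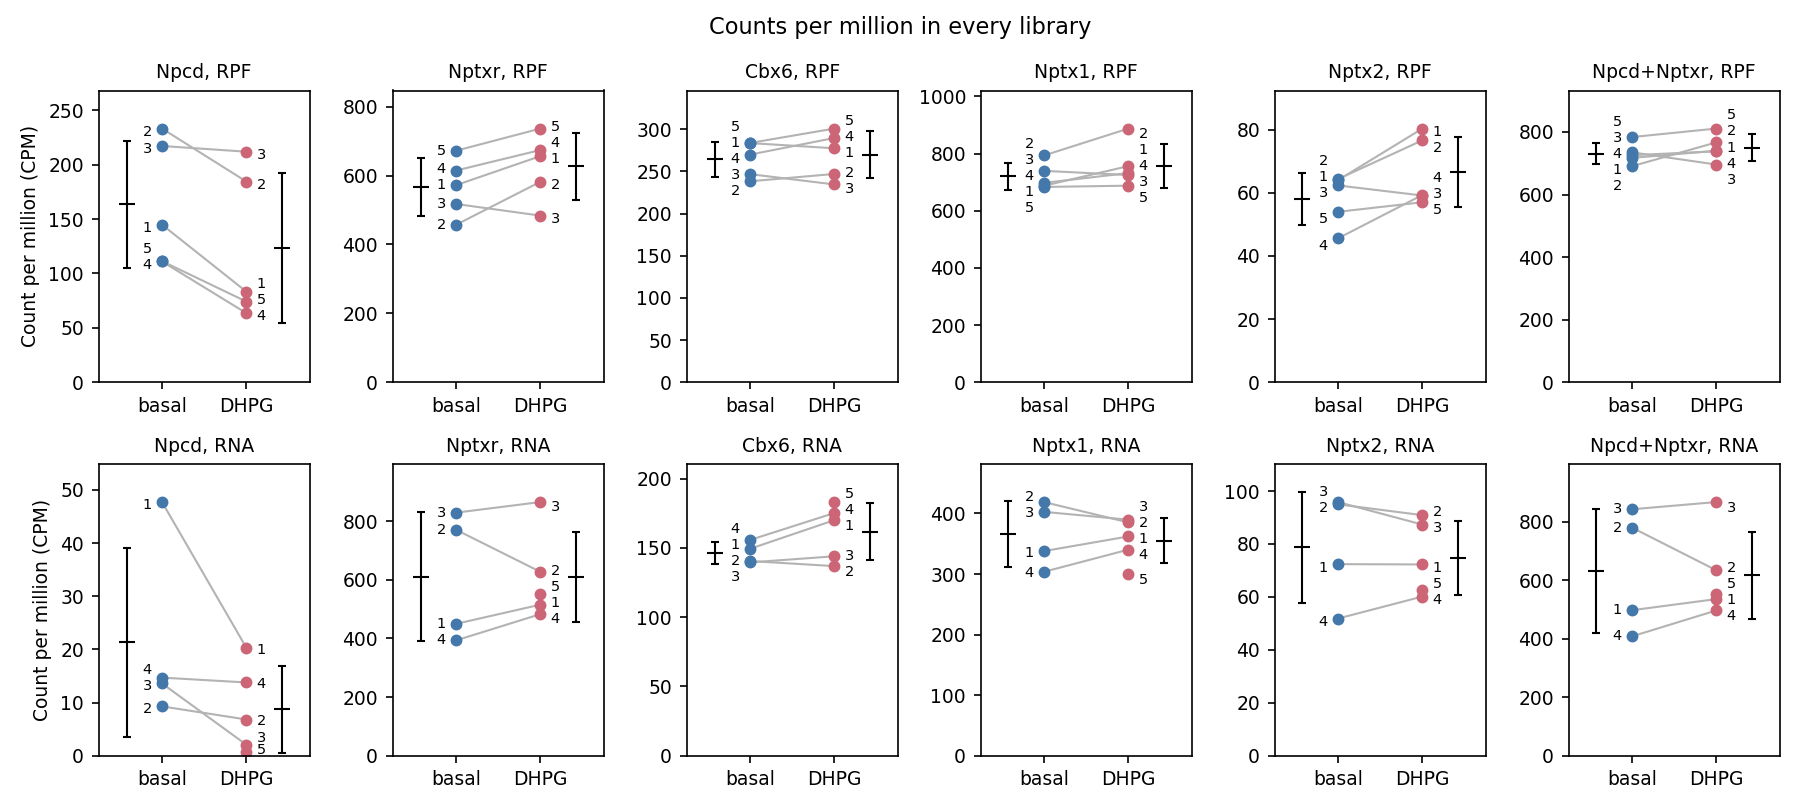
CPM of each member and of Npcd and Nptxr added, in every library, RPF above and RNA below, with lines joining the basal and DHPG libraries of a replicate, replicate numbers in order of value beside the points, and bars for the mean ± SD. In RPF, mean Npcd is 163.5 ± 58.3 basal and 123 ± 69.3 after DHPG, while the sum with Nptxr lies within 690.4 to 811 CPM.

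Npcd RNA was also lower after DHPG, on small counts. Basal replicates 1 to 4 had 292, 45, 88 and 104 counts (47.7, 9.27, 13.6 and 14.7 CPM) and their DHPG partners 157, 33, 12 and 98 (20.3, 6.80, 2.05 and 13.8 CPM), lower in 4 of 4 pairs, as were 6.97% of all RNAs tested. The DHPG library of replicate 5, which has no basal partner, had 4 counts (0.673 CPM). The edgeR log2 fold change was -0.97 ± 0.19 (SE of the fit, which does not measure the spread of the pairs). DESeq2 with the replicate block gave -1.075 with a larger SE of 0.524. Among the pairs, replicate 3 showed the largest step (-2.73) and replicate 4 the smallest (-0.093). The groups overlapped, and the highest Npcd RNA library was 70.9 times the lowest. Nptxr RNA ranged from 393 to 828.7 CPM in basal slices and from 483 to 865 CPM after DHPG, with a log2 fold change of 0.064 ± 0.076. Cbx6 RNA ranged from 139.5 to 156 CPM and from 137 to 183 CPM, with 0.095 ± 0.071. The sum of Npcd and Nptxr RNA had a log2 fold change of 0.033 ± 0.075 and the sum of all 3 genes 0.042 ± 0.072. Npcd made up at most 9.60% of the former sum and 7.38% of the latter.

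**Figure D5:**
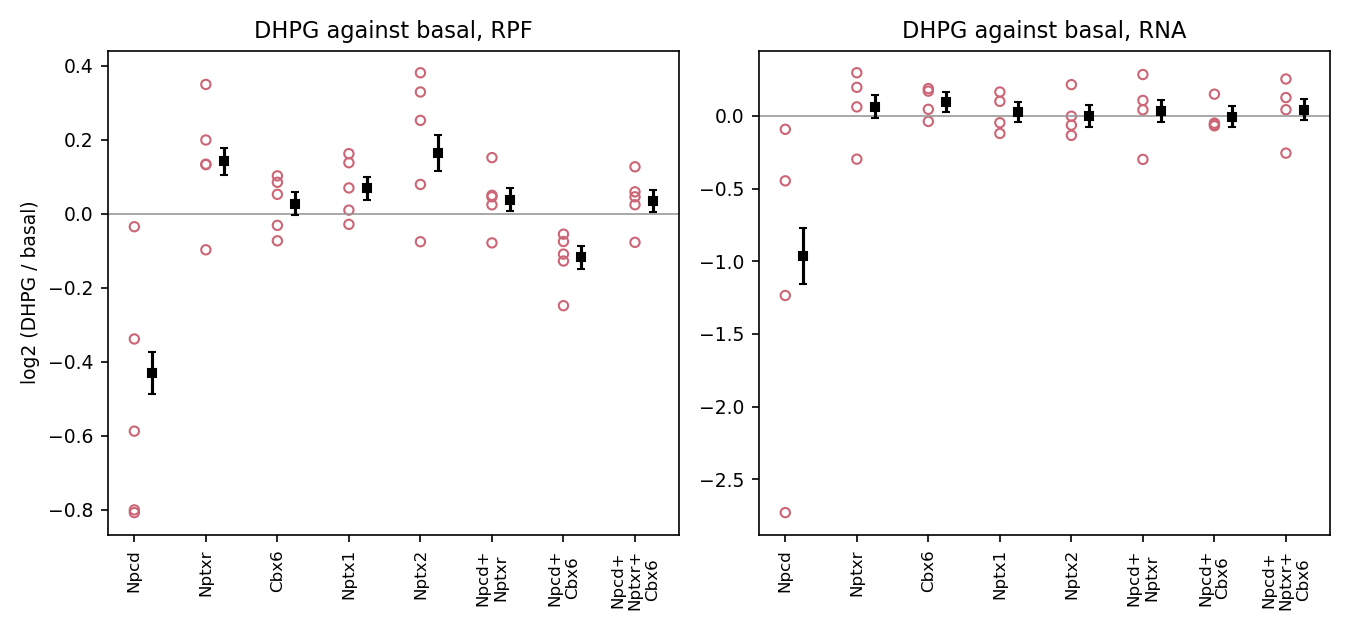
Log2 ratio of DHPG to basal CPM in each replicate pair (open circles, 5 pairs for RPF and 4 for RNA) and the edgeR log2 fold change ± SE (squares) for the 5 members and 3 sums. Npcd lies below 0 in every pair of both assays, while the squares of Npcd and Nptxr added lie at 0.038 in RPF and 0.033 in RNA.

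The secreted pentraxins share no reads with the locus and were tested in full. Nptx2 RPFs were 64.0, 64.3, 62.3, 45.5 and 53.9 CPM in basal slices and 80.3, 76.6, 59.1, 59.3 and 57.0 CPM after DHPG. They were higher in 4 of 5 pairs, and replicate 3 was the exception, as it was for Nptxr. The log2 fold change was 0.16 ± 0.049 (SE) and did not pass (adjusted p = 0.148, edgeR). This call depended on the processing: it passed without replicate 3 (0.25, adjusted p = 0.00706, edgeR), without the filter on low counts (adjusted p = 0.0415, edgeR) and in DESeq2 after ComBat (adjusted p = 0.00540). Nptx2 RNA gave a log2 fold change of -0.0012 ± 0.078 (adjusted p = 0.998, edgeR), higher in 1 of 4 pairs.

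Nptx1, the member with the most RPFs, had 687, 793, 739.6, 697 and 683 CPM in basal slices and 756, 888, 725, 732 and 688 CPM after DHPG. The groups overlapped, and the log2 fold change of 0.068 ± 0.030 (SE), higher in 4 of 5 pairs, did not pass (adjusted p = 0.405, edgeR), although DESeq2 after ComBat called it (adjusted p = 0.0208). Nptx1 RNA was 304 to 419 CPM in basal slices and 299 to 389.7 CPM after DHPG, with a log2 fold change of 0.024 ± 0.068 (adjusted p = 0.959, edgeR).

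Translation efficiency (TE), the RPF level relative to the RNA level, was compared by the interaction between assay and treatment in 1 model of all libraries. No gene of 13320 passed in edgeR (0%), with 871 (6.54%) at an unadjusted p under 0.05. The log2 change in TE after DHPG was 0.18 ± 0.093 (SE) for Nptx2 (adjusted p = 0.763, edgeR) and 0.044 ± 0.068 for Nptx1 (adjusted p = 0.935, edgeR). It was 0.078 ± 0.089 for Nptxr, -0.071 ± 0.070 for Cbx6 and 0.50 ± 0.23 for Npcd, the RNA difference of Npcd being larger than that of its RPFs. The Npcd value depended on single replicates, with 0.16 without replicate 3, 0.32 without replicate 1 and 0.92 without replicate 4, and was 0.82 without the replicate block. In basal replicates the log2 ratio of RPF to RNA CPM of Npcd was between 1.59 and 4.61 (n = 4), a wider range than those of Nptxr (-0.75 to 0.64), Nptx1 (0.88 to 1.198), Nptx2 (-0.62 to -0.18) and Cbx6 (0.76 to 0.92).

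The wider families gave few calls. Of the pentraxin superfamily, 5 of 7 genes were tested in RPF, and all 5 had log2 fold changes above 0, from 0.068 to 0.16 (median 0.13, against 0.0031 over all RPFs tested, of which 51.4% were above 0), with none past the threshold. In addition to the neuronal members these were Ptx3 (0.068 ± 0.13) and Ptx4 (0.13 ± 0.28), which are scarce here with means of 4.65 and 0.773 CPM. The median is the value of Ptx4, and the 5 include Nptxr, which shares reads with Npcd. No conclusion about the superfamily is drawn from them. Crp and Apcs, the liver-derived short pentraxins, were too low to be tested. The AMPA receptor subunits Gria1 to Gria4 and Adam17 were 5 of 5 above 0 in RPF, from 0.037 to 0.073 (median 0.045), and none passed. Gria4 (0.073 ± 0.040, adjusted p = 0.519, edgeR) and Gria3 (0.060 ± 0.030, adjusted p = 0.462, edgeR) had the largest values. In RNA the pentraxins had a median of 0.012 and the AMPA receptor list a median of 0.0011, with none past the threshold.

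Among 18 secreted organizers of synapses, a list of C1q-like proteins, cerebellins, olfactomedins, Lgi proteins, thrombospondins, glypicans and Sparcl1, 16 were above 0 in RPF with a median of 0.056, and 1 passed. That was Sparcl1 (hevin), a protein that astrocytes release, with 4426 ± 970.0 CPM in basal and 4818 ± 892 CPM in DHPG libraries (SD, n = 5 each), higher in 5 of 5 pairs, with a log2 fold change of 0.13 ± 0.0295 (adjusted p = 0.0357, edgeR). Among all RPFs tested, 5.16% were higher in every pair. Its call was lost when replicate 1, 2, 4 or 5 was left out (adjusted p = 0.298, 0.0804, 0.121 and 0.140, edgeR). The 5 astrocyte markers of the list used here were 5 of 5 above 0 in RPF with a median of 0.052, and their part in the Sparcl1 difference was not tested. Cbln4, a synaptic cerebellin, was lower in 5 of 5 pairs at -0.28 ± 0.0915 (adjusted p = 0.209, edgeR), and Thbs1 higher in 5 of 5 at 0.17 ± 0.089 (adjusted p = 0.510, edgeR), or 0.091 without replicate 5. In RNA the organizers had a median of 0.092, 14 of 18 above 0 and none past the threshold. In TE they had a median of -0.019, 11 of 18 below 0 and none past the threshold. Over all genes tested, 52.1% were above 0 in RNA (median 0.0068) and 49.4% in TE (median -0.002).

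The relatives of Cbx6 showed no call. Of 10 chromobox genes, 9 were tested in RPF, 3 above and 6 below 0, with a median of -0.067 and none past the threshold. Cbx7 (-0.19 ± 0.105, adjusted p = 0.531, edgeR) and Cdyl (-0.14 ± 0.090, adjusted p = 0.611, edgeR) were farthest from 0. Of 16 further subunits of Polycomb repressive complex 1, 15 were tested, 9 above and 6 below 0, with a median of 0.0205. The farthest were Ring1 (0.12 ± 0.062, adjusted p = 0.498, edgeR), an E3 ubiquitin ligase of the complex, and Bmi1 (-0.0975 ± 0.071, adjusted p = 0.669, edgeR), its partner.

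Within 100 kb of Npcd the annotation places 8 genes with rows in the tables. From 5′ to 3′ on the plus strand these are Gtpbp1, Sun2, Dnal4, Nptxr, Npcd, Cbx6, Apobec3 and Cbx7. RPF log2 fold changes of the genes that share no exon with Npcd were -0.032 ± 0.043 for Gtpbp1, a translational GTPase, 0.084 ± 0.050 for Sun2, a protein of the nuclear envelope, -0.055 ± 0.066 for Dnal4, a dynein light chain, -0.34 ± 0.16 for Apobec3, a cytidine deaminase, and -0.19 ± 0.105 for Cbx7. None of these passed the threshold.

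The genes whose log2 CPM was most like that of a member across libraries were found over all 10 RPF and all 9 RNA libraries. These form replicate pairs, so r can follow differences between replicate numbers as well as treatment, and the parts were not separated. In RPF these were Pak3, Kif13b and Mob4 for Npcd (r = 0.97, 0.97 and 0.96), Tmem151a, Ssbp4 and 2310036O22Rik for Nptxr (0.97, 0.97 and 0.96), Tuba4a, Apbb1 and Sharpin for Cbx6 (0.99, 0.98 and 0.98), Rab39b for Nptx1 (0.95) and Tmem59l, Htr1f and Tmem130 for Nptx2 (0.99, 0.95 and 0.95). In RNA they were Rhoa, Stip1 and Foxj3 for Npcd (0.96, 0.90 and 0.90), Scarb1 and Fibcd1 for Nptxr (0.99 each, to 2 decimals), Rrs1, Srsf2 and Sowahc for Cbx6 (0.95, 0.94 and 0.94), Ptpn5, Zfp385a and Wbscr17 for Nptx1 (0.98 each, to 2 decimals) and Atp6v0a1, Adcy3 and St8sia5 for Nptx2 (0.99, 0.99 and 0.98). No gene named here appeared for more than 1 member. The 3 neuronal pentraxins were more alike in RNA than in RPF: Nptx1 and Nptx2 correlated at r = 0.93 in RNA and 0.68 in RPF, and Nptxr with Nptx1 at 0.81 in RNA and -0.37 in RPF. Npcd RNA was like neither of its overlapping neighbours (r = -0.41 with Nptxr and -0.22 with Cbx6).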

How the data were processed

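RNA-seq and ribosome profiling of 19 libraries of wild-type mouse hippocampal slices were used. Per the study's methods, the authors removed adapters (Cutadapt), filtered reads (Trimmomatic), dropped rRNA and tRNA reads (bowtie2), aligned to mm10 (TopHat2), kept uniquely mapped reads without duplicates by molecular identifier, and ran RSEM. The deposited expected counts are whole numbers, not normalized, with RNA counted on whole transcripts and RPFs on RefSeq coding sequences without the first and last 30 nt. These expected counts hold counting error and, for overlapping genes, the error of dividing shared reads, and totals of 4870813 to 22092434 per library set their precision. Another 12 columns match no sample here and were not used.

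DHPG was compared with basal in edgeR 4.0.16 (R 4.3.3, limma 3.58.1) by the quasi-likelihood F test, with TMM, filterByExpr, replicate number as a block and p-values adjusted over all genes tested by Benjamini-Hochberg (thresholds 0.01 for RNA, 0.05 for RPF and TE). The study's methods treat replicate numbers as batches, and libraries of a number deviated together (r = 0.26 to 0.74 in every pair of RNA and RPF), so the numbers were taken to pair the samples. DHPG RNA replicate 5 adds nothing to the contrast under the block. CPM were computed from the deposited counts and TMM-scaled library sizes, log2 CPM with a prior count of 2. SE is the log2 fold change divided by the square root of F. Shared windows and joins were read from GENCODE M21 transcripts of mm10, to which 96.0% of the genes matched by symbol. The steps were tested on simulated data.

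The members and gene lists were chosen with earlier results of these data known. Named genes were the members, the 3 genes most correlated with each member in each assay, genes within 100 kb of Npcd, and from each list those past the threshold and the 2 with the largest RPF change. Some of the correlated genes are not reported here. Alternatives were DESeq2 1.42.0 size factors, no filter (at least 1 count in all), no replicate block, at least 10 counts in each library, DESeq2 with the block, ComBat (sva 3.50.0) with DESeq2, summed rows, and leaving out each replicate. ComBat was run here on log2 CPM of these libraries, whereas the paper corrected RSEM counts and had more replicates. No row was left out as naming no gene.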

Additional observations from a re-analysis of the deposited data

Results flagged for a closer look

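Among 24 gene and group combinations of 4 or 5 libraries that were screened for a library far from the others, 1 stood apart, where chance gives about 1.2. Npcd RNA in basal replicate 1 was 47.7 CPM, against 9.27 to 14.7 CPM in the other basal libraries, a gap of 0.859 of the group's whole range (critical value 0.829). In the same replicate the DHPG library also had the highest Npcd RNA of its group, 20.3 CPM. Without replicate 1 the log2 fold change of Npcd RNA stayed below 0, within the range given for leaving out replicates.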

How the results depend on the processing

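The fit with the replicate block called 1 RNA and 29 RPFs. Without the block it called 0 in both, and no TE with or without it. The RPF share of Npcd less its RNA share, 12.7 points, had a two-sided exact permutation p of 0.00794 without the pairing. That p ignores how the libraries are paired and compares shares on different counted lengths, so no conclusion is drawn from it. RNA calls were 7 without the filter, 0 with at least 10 counts per library, 0 in DESeq2 with the block and 100 after ComBat and DESeq2. They ranged from 0 to 22 when a replicate was left out, and RPF calls from 3 to 71. RPF calls were 96 without the filter and 427 after ComBat and DESeq2. TE calls were 6 without the filter and 0 to 8 when a replicate was left out. Values near 0 that changed sign were, without the block, those of RNA for Nptxr (-0.0050), Nptx1 (-0.042), Npcd and Nptxr added (-0.034) and Npcd and Cbx6 added (0.026), and that of TE for all 3 added (0.031), and with DESeq2 that of Nptx2 RNA (0.00030). Leaving out replicates moved RNA log2 fold changes from -0.015 to 0.18 for Nptxr, -0.025 to 0.072 for Nptx1, -0.070 to 0.047 for Nptx2, -0.052 to 0.14 for Npcd and Nptxr added, -0.062 to 0.015 for Npcd and Cbx6 added and -0.031 to 0.14 for all 3 added. It moved TE from -0.097 to 0.16 for Nptxr, -0.031 to 0.096 for Nptx1, -0.14 to 0.095 for Npcd and Nptxr added and -0.13 to 0.066 for all 3 added, and RPF of Gtpbp1 from -0.061 to 0.0044. The cause of these changes was not tested. Npcd stayed below 0 in RPF (-0.36 to -0.58) and RNA (-0.72 to -1.33) when a replicate was left out, and its RPF value was -0.40 without the block and -0.51 in DESeq2 with the block, which gave it no adjusted p. Npcd RNA has no value with at least 10 counts per library. Counts of 4 to 33 in 3 DHPG RNA libraries limit its precision there.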
